A study of Homo sapiens with 16 samples.

Results

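The drug efflux ABC transporters are a group of 8 membrane pumps, ABCB1, ABCB5, ABCC1, ABCC2, ABCC3, ABCC4, ABCC5 and ABCG2, among the 34228 genes of the count table. The members were chosen by gene symbol with the counts of these libraries already known, and no threshold on a value was used, so the levels and changes below describe these 8 genes and are not independent evidence for grouping them. RNA-Seq of polyA RNA had been done on 451Lu-R and 1205Lu-R, established human BRAF-mutant melanoma lines made resistant to the BRAF inhibitor PLX4032 (vemurafenib) by long exposure to it. Cells received either DMSO, the solvent control, or corin at 2.5 μM, both over 24 hours, and each of the 4 groups had 2 libraries, which gives the 8 libraries used here. Corin joins a histone deacetylase inhibitor and a lysine demethylase inhibitor in 1 molecule and is directed at the CoREST repressor complex. All groups share the resistant background. Per the study's methods, resistant lines are kept in medium with 5 μM PLX4032, and the labels of the DMSO and corin libraries name no PLX4032. Whether either line is a clone is not given in the sources used here. The other 8 of the 16 samples, treated with PLX4032 or with PLX4032 plus corin, were not analysed here.

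ABC transporters use ATP to move molecules across membranes, and the members of this group push drugs, drug conjugates and signalling molecules out of the cell. ABCB1 (P-glycoprotein) and ABCG2 (breast cancer resistance protein) act on unchanged hydrophobic drugs, kinase inhibitors such as vemurafenib among them, while the ABCC proteins (multidrug resistance-associated proteins) prefer organic anions, including glutathione and glucuronide conjugates. In melanoma, ABCB5 has been described as a marker of a cell subpopulation with stem-like properties.

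The 8 libraries held 9516687 to 11797788 estimated counts each. The summed level of 8 melanocytic markers was 13650 and 13730 CPM (counts per 1000000 counts of a library) in the 451Lu-R DMSO libraries and 8.56 and 8.29 CPM in the 1205Lu-R DMSO libraries, where 5 of the 8 had at most 3 counts per library and 3 had none, so 1205Lu-R held hardly any RNA of the genes that define the melanocytic lineage. Dedifferentiated melanoma markers, 5 genes that include AXL and NGFR, had the opposite distribution as a sum, with 8.02 and 8.07 CPM in 451Lu-R DMSO and 1563 and 1572 CPM in 1205Lu-R DMSO. Corin moved these totals to 11700 and 11750 CPM (melanocytic) and 386.6 and 379.2 CPM (dedifferentiated) in 451Lu-R, and to 26.6 and 23.2 CPM and 1123 and 1119 CPM in 1205Lu-R. NGFR alone gave 354.7 and 348.1 CPM of the dedifferentiated totals in 451Lu-R with corin, where AXL had 2.472 and 2.336 CPM. In 1205Lu-R, 3 of the 5 dedifferentiated markers fell with corin and 1 was not called. NGFR rose there, against the total, from 5.602 and 6.12 to 205.9 and 199.0 CPM. Of 4 endothelial markers, KDR and VWF rose with corin in both lines, PECAM1 fell in 1205Lu-R (by edgeR, -0.45 on the log2 scale with adjusted p = 0.0185) and had 0 counts in 451Lu-R, and the summed level went from 9.08 and 10.9 to 72.9 and 70.5 CPM in 451Lu-R and from 11.2 and 11.7 to 51.9 and 46.6 CPM in 1205Lu-R. The 3 measured immune markers together stayed at or under 1.61 CPM in every library, and 3 keratinocyte markers summed to 16.7 to 32.5 CPM. Single markers moved within these sums in 451Lu-R with corin. KRT14 went from 3 and 4 to 56 and 44 counts and CD14 from 3 and 0 to 16 and 15. KRT10, most of the keratinocyte sum, fell from 20.7 and 20.9 to 15.5 and 12.2 CPM. The part of these marker shifts in the transporter results was not tested, and in bulk RNA a change in the share of expressing cells and a change in RNA per cell cannot be told apart. Nothing in the labels says that the 2 libraries of a group came from separate cultures, so p-values measure only the spread between these libraries, which may be technical.

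More of the measured drug efflux transporters rose than fell with corin. Of the 6 members that passed the filter on low counts in 451Lu-R, ABCB1, ABCG2, ABCC5 and ABCC1 rose and ABCB5 and ABCC4 fell at a false discovery rate (FDR) under 0.05, beside 41.3% of 14530 tested genes that rose and 38.6% that fell. Of the 7 members tested in 1205Lu-R, ABCB1, ABCG2, ABCC2, ABCC1, ABCC3 and ABCC5 rose and ABCC4 fell, beside 40.4% of 14563 tested genes that rose and 37.8% that fell. In all, 11612 genes passed this threshold for 451Lu-R and 11396 for 1205Lu-R. With the stricter call of a 4-fold change at FDR under 0.001, ABCB1 and ABCG2 rose in both lines, against 12.4% of all tested genes in 451Lu-R and 11.3% in 1205Lu-R. ABCB5 fell by that call in 451Lu-R, against 2.72% of all tested genes, and no member did in 1205Lu-R, against 1.43%. The median log2 fold change of the tested members was 0.87 in 451Lu-R and 1.03 in 1205Lu-R, where that of all tested genes was 0.03 in both. ABCB1 in both lines, ABCG2 in 451Lu-R and ABCC2 in 1205Lu-R passed the filter only through the corin libraries, and ABCB1 therefore had to differ, so these counts and medians are no support for the group.

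**Figure D1:**
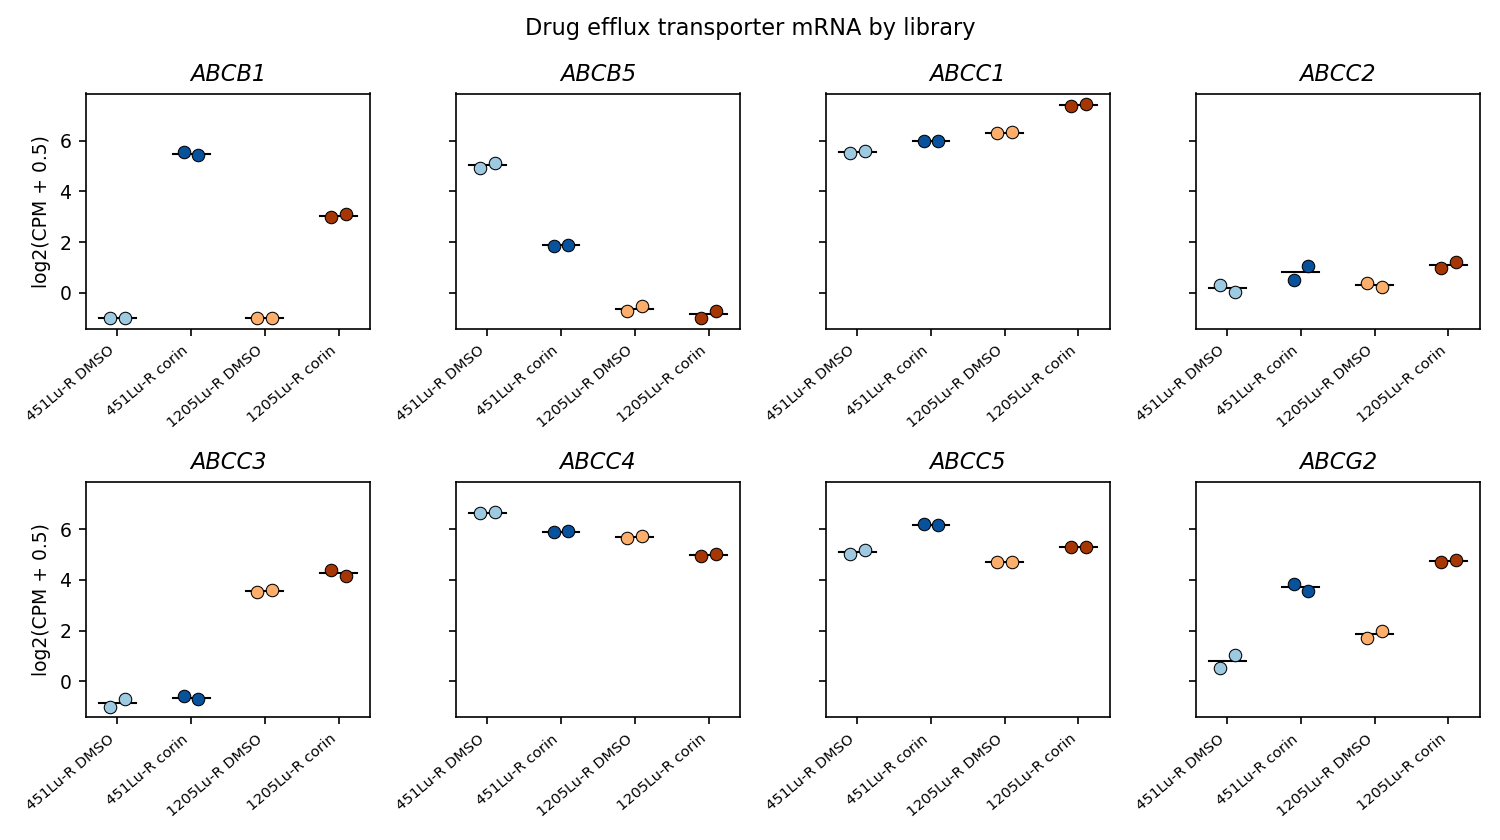
Level of each of the 8 transporter mRNAs in each of the 8 libraries, as log2(CPM + 0.5), with 2 points per group and a line at their mean. ABCB1 lies at 0 counts in all 4 DMSO libraries and above ABCB5 in all 4 corin libraries, ABCB5 is high only in the 451Lu-R DMSO libraries, and ABCC4 is lower with corin in both lines.

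ABCB1 RNA was not detected without corin and was found with it in both lines, at a higher level in 451Lu-R. The gene lies on the minus strand of chromosome 7 (chr7:87503017-87713323, hg38). Its estimated counts were 0 in all 4 DMSO libraries, where 3 counts, the limit that a count of 0 allows, correspond to 0.271 to 0.310 CPM, a limit for counting error only. In 451Lu-R with corin it reached 543 and 428 counts, or 46.0 and 42.8 CPM, at least 151.6-fold above that limit. In 1205Lu-R with corin it reached 70 and 89 counts, or 7.36 and 8.01 CPM, at least 27.8-fold above it. Since the gene passed the filter only through these libraries, the outcome of the test against DMSO was fixed and no p-value is given for it. The corin level was 5.78-fold lower in 1205Lu-R than in 451Lu-R (log2 difference -2.61, SE 0.11, adjusted p = 2.72e-14, edgeR quasi-likelihood test), and no library of either line overlapped with the other line's. Since neither line had a count with DMSO, the size of the response could not be compared between lines.

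RefSeq lists a pair of transcription starts for ABCB1, and both windows of 300 bases (250 before the start and 50 after it, GRCh38.p14, minus strand) are shown because the gene went from no counts to many. The upstream window, chr7:87713246-87713545, has 37.67% G+C and 1 CpG, and the downstream window, chr7:87600835-87601134, has 55.33% G+C and 16 CpG, where the median of 35116 such windows is 58.67% and 14. Capitals mark the CCAAT box (CCAAT, or ATTGG on the other strand), found at 238 and 79 bases before the downstream start and in 34.61% of all windows. The counts are per gene and do not tell which start was used.
ABCB1 upstream start: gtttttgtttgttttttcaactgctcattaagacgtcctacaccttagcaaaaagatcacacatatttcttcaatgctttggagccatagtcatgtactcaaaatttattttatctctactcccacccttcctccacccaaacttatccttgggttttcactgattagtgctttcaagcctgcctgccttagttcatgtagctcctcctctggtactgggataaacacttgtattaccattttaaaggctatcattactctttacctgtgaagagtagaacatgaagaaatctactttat
ABCB1 downstream start: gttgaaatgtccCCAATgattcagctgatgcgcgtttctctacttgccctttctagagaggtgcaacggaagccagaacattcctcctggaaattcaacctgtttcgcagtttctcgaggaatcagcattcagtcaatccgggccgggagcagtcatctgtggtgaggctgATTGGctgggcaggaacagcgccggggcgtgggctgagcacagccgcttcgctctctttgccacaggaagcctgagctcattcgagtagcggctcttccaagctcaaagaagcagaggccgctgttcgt

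The neighbourhood of ABCB1 was looked at after its values were seen. RUNDC3B, which begins at position 87627548 inside the gene's span, on the opposite strand, and shares 0 exon bases with ABCB1, went in 451Lu-R from 1 and 0 counts under DMSO to 41 and 38 under corin, a ratio of 74.5 with a 95% counting interval of 13.0 to 2981. In 1205Lu-R it went from 19 and 18 to 142 and 138 counts (log2 fold change 2.91, adjusted p = 1.61e-11, edgeR). ABCB4, the phospholipid transporter of bile and the closest relative of ABCB1, begins 22582 bases away and went in 451Lu-R from 0 and 0 counts to 33 and 23, at least 8.74-fold higher. In 1205Lu-R its counts were 2 and 0, then 20 and 11, and because reads of such similar genes may be split between them, the low ABCB4 counts are uncertain. SLC25A40, 120245 bases away on the side of RUNDC3B, gave log2 fold changes of -0.06 (451Lu-R, adjusted p = 0.562) and 0.02 (1205Lu-R, adjusted p = 0.813, edgeR). Corin and DMSO libraries did not overlap for RUNDC3B and ABCB4 in either line, and neither change of SLC25A40 passed the test.

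ABCG2 was low without corin and rose with it in both lines. It lies on chromosome 4 (chr4:88090150-88231628, minus strand, hg38) and encodes a small transporter that works as a dimer and also exports urate. In 451Lu-R the level went from 0.917 and 1.55 CPM to 13.8 and 11.4 CPM, 10.2 times as high by the means (log2 fold change 3.47, SE 0.24). ABCG2 passed the low-count filter in that line only through the corin libraries, so no p-value is given for it. In 1205Lu-R it went from 2.80 and 3.48 to 25.9 and 27.0 CPM, 8.41 times as high (log2 fold change 2.998, SE 0.15, adjusted p = 2.8e-14, edgeR). Corin libraries stood above DMSO libraries without overlap in both lines. The difference between the lines' responses was -0.51 on the log2 scale (SE 0.34, adjusted p = 0.231, edgeR) and was not called. It rests on single libraries, at -0.17 without 451Lu-R DMSO replicate 1 and -0.92 without replicate 2 of that group (adjusted p = 0.789 and adjusted p = 0.0943, edgeR). ABCG2 was higher in 1205Lu-R than in 451Lu-R both with DMSO (log2 difference 1.48, SE 0.31, adjusted p = 0.00019) and with corin (0.97, SE 0.12, adjusted p = 2.3e-07, edgeR).

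RefSeq lists 5 ABCG2 starts, and the window chr4:88158810-88159109, with 72.33% G+C and 33 CpG, is shown from its 3 CpG-rich windows, which overlap. The other 2 windows have 40.33% G+C with 3 CpG and 48.33% with 11 CpG. Capitals mark the GC box (GGGCGG, or CCGCCC on the other strand), found at 213 and 102 bases before this start and in 44.95% of all windows. The CpG-rich window chr4:88158590-88158889 holds no GC box.
ABCG2: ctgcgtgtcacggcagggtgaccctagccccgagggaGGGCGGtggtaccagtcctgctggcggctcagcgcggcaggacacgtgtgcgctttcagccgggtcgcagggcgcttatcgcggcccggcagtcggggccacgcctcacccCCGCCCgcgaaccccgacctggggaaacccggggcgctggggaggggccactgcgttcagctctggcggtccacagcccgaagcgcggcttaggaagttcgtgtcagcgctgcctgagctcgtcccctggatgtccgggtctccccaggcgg

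ABCB5 was the member with the reverse pattern. It lies on chromosome 7 (chr7:20615667-20777038, plus strand, hg38), and its RNA was abundant only in 451Lu-R with DMSO, at 30.0 and 34.5 CPM. With corin the same line had 3.13 and 3.24 CPM, 10.1-fold lower (log2 fold change -3.24, SE 0.14, adjusted p = 3.98e-14, edgeR). In 1205Lu-R only 1 and 2 counts were found without corin and 0 and 1 with it, at or under the floor of 3 counts in both, so no fold is given. The DMSO level was 232.3 times lower in 1205Lu-R than in 451Lu-R by the summed counts, with a 95% counting interval of 79.2 to 1129. With corin the ratio was 65.3, with an interval of 11.3 to 2616. The melanocytic markers above, 7 of which fell and 1 of which rose in 451Lu-R with corin, are likewise concentrated in 451Lu-R, and their part in the ABCB5 values was not tested.

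**Figure D2:**
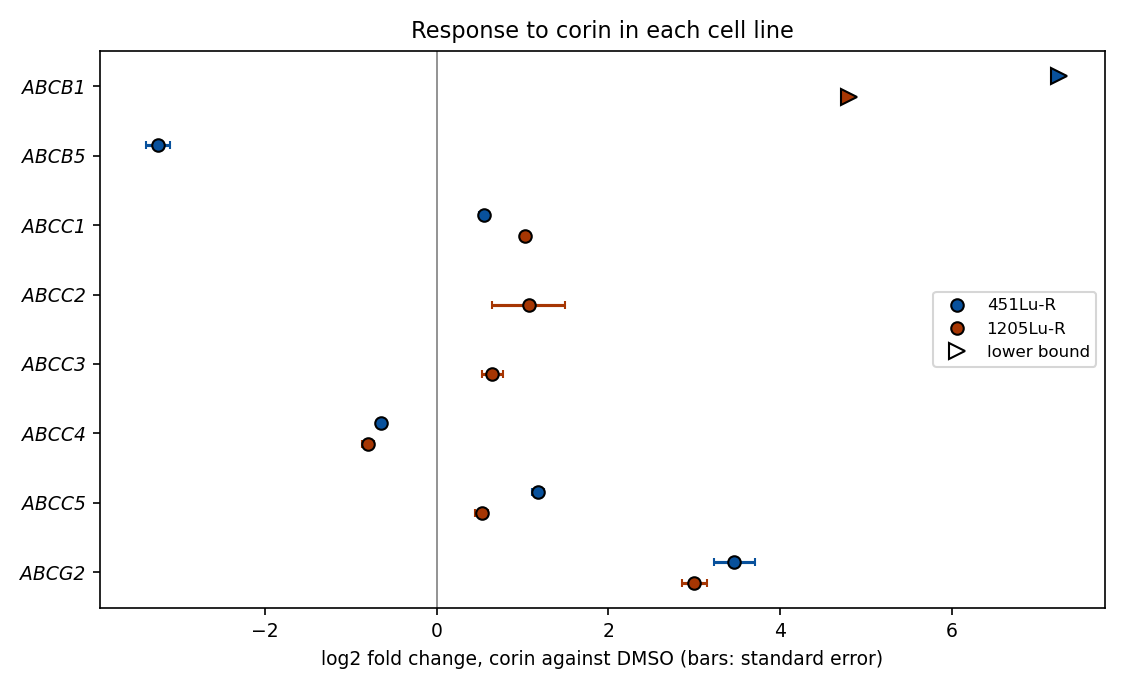
Corin response of each transporter in 451Lu-R and 1205Lu-R, as the log2 fold change against DMSO with bars of 1 standard error, where triangles mark the lower bound for ABCB1 and genes not tested in a line have no point. ABCB1 and ABCG2 lie farthest to the right in both lines, and ABCB5 in 451Lu-R lies at -3.24.

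The glutathione-conjugate exporter ABCC1 (chr16:15949138-16143257, plus strand, hg38) rose in both lines. In 451Lu-R it went from 45.2 and 47.5 CPM to 63.4 and 63.4 CPM (log2 fold change 0.55, SE 0.06, adjusted p = 9.36e-08, edgeR). In 1205Lu-R it went from 77.5 and 79.7 CPM to 164.8 and 173.2 CPM (log2 fold change 1.03, SE 0.04, adjusted p = 1.08e-15, edgeR). The rise was larger in 1205Lu-R, with a difference of 0.44 on the log2 scale (SE 0.07, adjusted p = 2.28e-05, edgeR interaction term). ABCC6, its neighbour 6308 bases away and a close relative, had at most 8 counts in any library.

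ABCC5 (chr3:183919934-184017939, minus strand, hg38), which exports cyclic nucleotides, also rose in both lines but more in 451Lu-R. Its CPM went from 32.4 and 35.6 to 73.2 and 70.3 in 451Lu-R (log2 fold change 1.18, SE 0.07, adjusted p = 2.89e-12, edgeR). In 1205Lu-R they went from 25.4 and 25.7 to 39.1 and 38.3 (log2 fold change 0.53, SE 0.08, adjusted p = 2.09e-06, edgeR). The difference between the responses was -0.70 (SE 0.10, adjusted p = 3.86e-06, edgeR interaction term), the opposite sign to that of ABCC1. Corin and DMSO libraries did not overlap for either gene in either line.

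ABCC4, an exporter of cyclic nucleotides and prostaglandins, fell in both lines. It lies on chromosome 13 (chr13:95019835-95301475, minus strand, hg38). In 451Lu-R it went from 98.6 and 100.6 to 58.5 and 60.3 CPM (log2 fold change -0.65, SE 0.05, adjusted p = 3.51e-10, edgeR), and in 1205Lu-R from 50.3 and 52.4 to 29.8 and 31.95 CPM (-0.80, SE 0.07, adjusted p = 8.3e-10, edgeR). The CPM ratios, 1.68-fold and 1.66-fold lower, are closer to each other than the fitted values, because the fits add a scaling factor per library to the totals. The fitted difference between the responses, -0.19 (SE 0.08, adjusted p = 0.0568, edgeR), was not called and turned to 0.02 when libraries were scaled by their totals alone. ABCC4 stayed lower in 1205Lu-R than in 451Lu-R with DMSO (log2 difference -0.83, adjusted p = 1.33e-12) and with corin (-1.02, adjusted p = 1.58e-12, edgeR).

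The RefSeq window of ABCC4, chr13:95301402-95301701, is shown because this member fell in both lines. It has 79.67% G+C and 47 CpG, and capitals mark a match to the antioxidant response element (TGACNNNGC, here GCCGCGTCA on the other strand) at 149 bases before the start, found in 13.35% of all windows. An ABCG2 window that is not printed, chr4:88159241-88159540, also holds a match to this element (TGACTGGGC), at base 2 from its start. The other motifs searched on both strands were the M-box core (CATGTG, in 11.1% of windows) and the AP-1 site (TGACTCA, in 4.949%), and neither is in the 4 windows printed. Matches are descriptions of the letters and not of binding.
ABCC4: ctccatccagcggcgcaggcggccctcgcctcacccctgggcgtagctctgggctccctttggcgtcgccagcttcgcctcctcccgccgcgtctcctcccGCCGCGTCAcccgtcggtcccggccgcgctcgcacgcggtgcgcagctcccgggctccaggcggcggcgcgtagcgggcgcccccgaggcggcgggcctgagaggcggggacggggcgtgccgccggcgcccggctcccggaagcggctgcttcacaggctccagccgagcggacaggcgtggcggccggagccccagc

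ABCC3 and ABCC2 export glucuronides and other conjugates, ABCC3 at the basolateral and ABCC2 at the apical membrane of epithelia such as the liver. ABCC3 (chr17:50634777-50692253, plus strand, hg38) was above the floor in 1205Lu-R only, going there from 11.0 and 11.5 CPM to 20.3 and 17.1 CPM (log2 fold change 0.65, SE 0.12, adjusted p = 5.34e-05, edgeR). In 451Lu-R only 0 and 1 counts were found without corin and 2 and 1 with it, at or under the floor. Its level was 231.4 times higher in 1205Lu-R than in 451Lu-R with DMSO by the summed counts, with a 95% counting interval of 41.1 to 9177. With corin the ratio was 134.9, with an interval of 45.8 to 657.1. ABCC2 (chr10:99782640-99852594, plus strand, hg38) had between 5 and 20 counts in every library. It was not tested in 451Lu-R, where it had 0.734 and 0.517 CPM without corin and 0.932 and 1.59 CPM with it. In 1205Lu-R it went from 0.813 and 0.659 to 1.47 and 1.80 CPM (log2 fold change 1.07, SE 0.43, adjusted p = 0.0269, edgeR). ABCC2 passed the low-count filter there only through the corin libraries, so this p-value is no support for a rise. The call was lost without that filter (adjusted p = 0.055, edgeR) and in DESeq2 (adjusted p = 0.267). Leaving out single libraries of the line put the log2 fold change between 0.909 and 1.217.

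Between the lines' responses to corin, only the differences of ABCC1 and ABCC5 were called, 1 in each direction, where 22.6% of 16062 genes responded higher in 1205Lu-R and 27.1% lower. ABCG2, ABCC4 and ABCC2 were not called (ABCC2 at -0.03, SE 0.64, adjusted p = 1.0, edgeR), and ABCB1, ABCB5 and ABCC3 gave no usable estimate because a line had no or almost no counts. With DMSO, ABCC3, ABCG2 and ABCC1 were higher in 1205Lu-R and ABCB5, ABCC4 and ABCC5 lower, beside 38.2% of 16062 genes higher and 37.2% lower. ABCC1 differed by 0.89 (SE 0.05, adjusted p = 1.99e-12) and ABCC5 by -0.29 (SE 0.08, adjusted p = 0.00196, edgeR). With corin the same 3 genes were higher, beside 38% of all tested genes, and 4 were lower, ABCB1 joining the other 3, beside 39%. ABCC1 then differed by 1.33 (SE 0.04, adjusted p = 2.9e-17) and ABCC5 by -0.98 (SE 0.06, adjusted p = 2.52e-12, edgeR). ABCC2 was not called between lines with DMSO (0.34, SE 0.56, adjusted p = 0.599) or with corin (0.31, SE 0.42, adjusted p = 0.505, edgeR). ABCB1, ABCB5 and ABCC3 passed the filter of the 8-library fit only through groups in which they were high.

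The makeup of the group per length differed between lines and with corin. A gene's length was the union of all its annotated exons, from 5602 bases for ABCG2 to 11365 for ABCC5. Expressed transcripts can be shorter and were not measured, so the order of genes and their shares depend on the annotation. As CPM per kilobase of exon, 451Lu-R with DMSO had ABCC4 first (11.4 and 11.7), then ABCC1 (5.18 and 5.44), ABCB5 (3.41 and 3.93), ABCC5 (2.85 and 3.13) and ABCG2 (0.164 and 0.277), with ABCC2 under 0.1 and ABCC3 and ABCB1 at or near 0. With corin, ABCC1 (7.26 and 7.26), ABCB1 (7.17 and 6.66), ABCC4 (6.78 and 6.99) and ABCC5 (6.44 and 6.19) were close together. The ranges of ABCB1 and ABCC4 overlapped, and the gap between ABCC1 and ABCB1 was smaller than the spread of ABCB1. ABCB1 thereby held 22.9% of the group's summed level per kilobase and ABCG2 7.46%, against 0% and 0.926% with DMSO, while ABCB5 went from 15.4% to 1.2%.

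In 1205Lu-R, ABCC1 was first in both groups, at 8.88 and 9.12 CPM per kilobase with DMSO and 18.9 and 19.8 with corin, or 47.3% and 56.2% of the summed level. With DMSO it was followed by ABCC4 (5.83 and 6.07), ABCC5 (2.23 and 2.26), ABCC3 (1.15 and 1.20) and ABCG2 (0.5 and 0.622). With corin, ABCG2 was second at 4.61 and 4.82, ahead of ABCC4 (3.46 and 3.70) and ABCC5 (3.44 and 3.37), and the latter pair lay closer to each other than the 2 libraries of ABCC4. ABCC3 (2.11 and 1.78) and ABCB1 (1.15 and 1.25) came next, and ABCC2 and ABCB5 were last. The summed CPM of the 8 members went from 207.8 and 220.4 to 259.2 and 253.1 in 451Lu-R, and from 168.0 and 173.5 to 288.7 and 297.5 in 1205Lu-R.

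**Figure D3:**
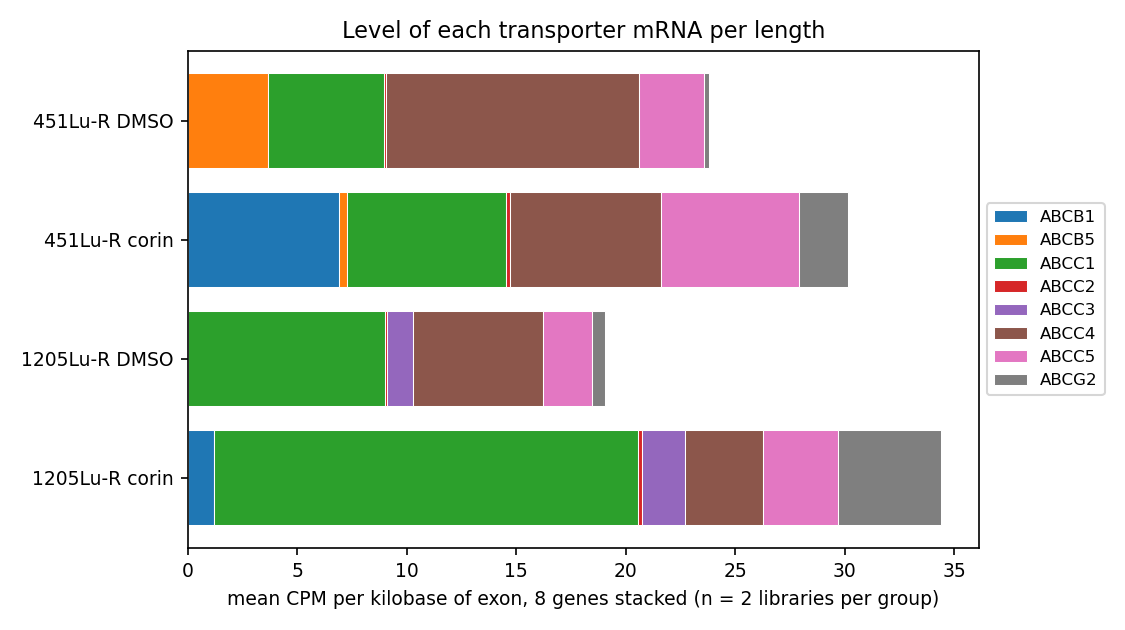
Mean CPM per kilobase of exon of the 8 transporter mRNAs in each group (n = 2 libraries), stacked along the horizontal axis. The length is the union of a gene's annotated exons, and shares depend on it. ABCC4 takes 48.5% of the bar in 451Lu-R with DMSO and 22.8% with corin, and ABCC1 takes 56.2% in 1205Lu-R with corin.

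The other 40 human ABC genes of the list, most of which carry lipids, peptides or metabolites, moved in both directions. In 451Lu-R 25 were tested, of which 14 rose, 5 fell and 6 were not called (median log2 fold change 0.62), and in 1205Lu-R 26 were tested, of which 13 rose, 9 fell and 4 were not called (median 0.45). ABCG1, which moves cholesterol to lipoproteins, rose from 0.0938 and 0.427 CPM (1 and 4 counts) to 9.47 and 10.0 CPM in 451Lu-R and from 1.08 and 1.13 to 15.1 and 13.4 CPM in 1205Lu-R. ABCA3, the surfactant lipid transporter, rose from 0.0917 and 0.517 CPM (1 and 5 counts) to 27.2 and 25.8 CPM in 451Lu-R and from 4.43 and 4.90 to 22.1 and 21.8 CPM in 1205Lu-R. These were among the largest rises of the family, with log2 fold changes in 451Lu-R (5.35, SE 0.35, and 6.55, SE 0.25) above that of ABCG2 there. Both folds rest on the few DMSO counts given above, and both genes passed the low-count filter in 451Lu-R only through the corin libraries.

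ABCA1, the cholesterol exporter to apolipoprotein, went in opposite directions, from 3.30 and 3.42 to 17.6 and 17.5 CPM in 451Lu-R (log2 fold change 2.48) and from 87.9 and 88.7 to 40.8 and 40.3 CPM in 1205Lu-R (-1.20, difference -3.72, SE 0.14, adjusted p = 3.28e-15, edgeR). The peroxisomal fatty acid transporter ABCD2 went in 451Lu-R from 1 and 1 counts to 60 and 47, a ratio of 50.5 with a 95% counting interval of 13.6 to 422.1. In 1205Lu-R, ABCG4, a sterol transporter, went from 0 and 0 to 19 and 25 counts, at least 7.67-fold higher (at least 5.02-fold in 451Lu-R), and ABCA7 (log2 fold change 2.93, and 2.20 in 451Lu-R) and ABCA13 (2.46, not tested in 451Lu-R) also rose. The ABC genes that fell included some with no part in drug efflux. The ribosome recycling factor ABCE1 fell by 1.25 and 1.07 (log2, 451Lu-R first, then 1205Lu-R), ABCF2 fell by 1.02 and 0.90, and the lysosomal cobalamin transporter ABCD4 fell by 1.46 and 1.01. The antigen peptide transporter TAP2 (-0.28, adjusted p = 0.0196, edgeR) fell in 451Lu-R and also in 1205Lu-R (-0.69), while its partner TAP1 rose in the former line (0.63) and fell in the latter (-0.69).

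**Figure D4:**
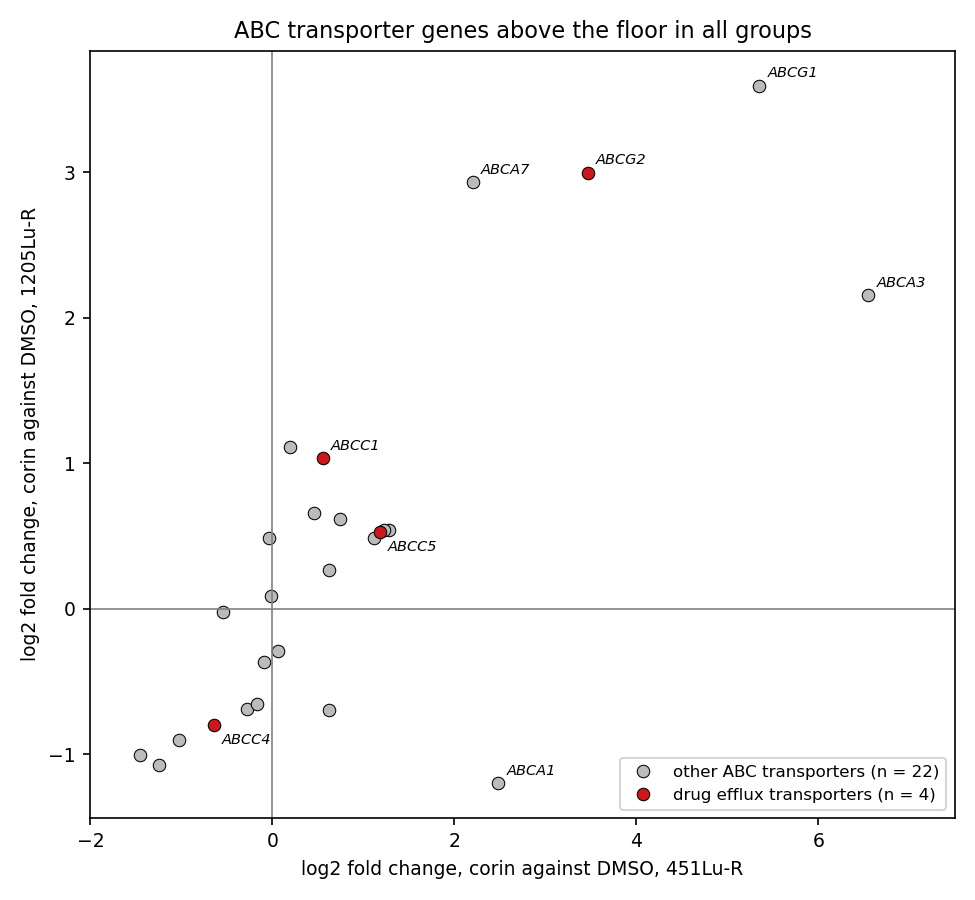
Log2 fold change with corin against DMSO in 451Lu-R (horizontal axis) and 1205Lu-R (vertical axis) for 4 drug efflux transporters and 22 other ABC genes. The genes drawn were tested in both lines and had more than 3 counts in at least 1 library of every group. ABCG2 lies with ABCA7, ABCG1 and ABCA3 at the upper right, and ABCA1 lies at the lower right.

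Genes that regulate, feed or anchor efflux pumps also moved in both directions. Of 24 transcription factors and partner proteins tied to efflux genes (KEAP1 and CTNNB1 being partners), 21 were tested in each line. In 451Lu-R 8 rose and 10 fell (median -0.06), and in 1205Lu-R 6 rose and 12 fell (median -0.20). AHR, the xenobiotic receptor that acts on the ABCG2 gene, rose from 30.3 and 36.7 to 179.2 and 173.3 CPM in 451Lu-R and from 33.8 and 36.3 to 188.7 and 191.8 CPM in 1205Lu-R (log2 fold changes 2.50 and 2.37). The growth factor-responsive EGR1 went from 61.1 and 60.0 to 29.0 and 29.8 CPM in 451Lu-R and from 96.7 and 96.3 to 546.1 and 551.2 CPM in 1205Lu-R (difference 3.34, SE 0.07, adjusted p = 2.79e-19, edgeR). HIF1A, the hypoxia factor, rose by 1.23 in 451Lu-R (-0.01, adjusted p = 0.735, in 1205Lu-R), and the fatty acid receptor PPARG fell by 1.32 in 1205Lu-R (-0.06, adjusted p = 0.515, edgeR, in 451Lu-R).

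Glutathione synthesis and transferase genes supply conjugates that the ABCC pumps export. Of these genes, 9 of 15 tested rose and 4 fell in 451Lu-R (median 0.31), beside 41.3% and 38.6% of all tested genes. For 1205Lu-R 11 of 14 rose and 2 fell (median 0.39), beside 40.4% and 37.8% of all tested genes. GCLC, the catalytic subunit of the rate-limiting enzyme, rose from 26.4 and 28.1 to 84.3 and 79.7 CPM in 451Lu-R (log2 fold change 1.69, and 1.23 in 1205Lu-R), and GSTA4 rose from 1.27 and 0.942 to 6.52 and 6.84 CPM in 1205Lu-R (2.51, and 0.65 in 451Lu-R). GSTA1 went from 1 and 0 to 29 and 32 counts in 451Lu-R, a ratio of 57.6 with a 95% counting interval of 9.95 to 2310. It passed the low-count filter there only through the corin libraries. GSTO1 fell in both lines (-0.84 and -0.34) and so did GSS (-0.70 and -0.64), while MGST2 fell by 1.09 in 451Lu-R and rose by 1.53 in 1205Lu-R (difference 2.58, SE 0.27, adjusted p = 4.26e-08, edgeR).

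Of 22 solute carriers of drugs in the table, which mostly bring drugs into cells, 9 were tested in 451Lu-R, with 6 that rose and 1 that fell (median 0.79), and 11 in 1205Lu-R, with 8 that rose and 2 that fell (median 0.67). SLCO4A1 (log2 fold change 1.82 in 451Lu-R, 0.98 in 1205Lu-R) and the proton-driven exporter SLC47A1 (1.57 and 0.51) rose in both. In 1205Lu-R, SLC29A2, a nucleoside carrier, went from 2 and 0 counts to 27 and 25, and SLCO2B1 from 1 and 1 to 27 and 21. Both passed the low-count filter there only through the corin libraries. The reduced folate carrier SLC19A1 fell by 0.88 (451Lu-R) and 0.71 (1205Lu-R), while SLCO3A1 rose by 0.79 in 451Lu-R and fell by 0.38 in 1205Lu-R.

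Scaffold genes hold transporters at the membrane and link them to actin. In 451Lu-R 5 of the 8 tested rose and 2 fell (median 0.37), and in 1205Lu-R 2 rose and 6 fell (median -0.65). NHERF1 rose in both lines, 451Lu-R and then 1205Lu-R, from 65.4 and 65.8 to 256.3 and 251.7 CPM and from 26.7 and 29.0 to 108.1 and 112.1 CPM, while its relative NHERF2 rose in the former line (1.35 on the log2 scale) and fell in the latter (-0.53). MSN, which encodes moesin, fell in both (-1.19 and -0.92), and EZR, which encodes its relative ezrin, rose in both (1.25 and 0.28). The caveolar gene CAV1 fell by 0.30 (451Lu-R) and 1.36 (1205Lu-R) (difference -1.09, SE 0.07, adjusted p = 4.99e-11, edgeR).

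For ABCB1, ABCB5 and ABCG2, a choice made with their values known, the genes most alike over the 8 libraries were found by the smallest root mean square difference of centred log2(CPM + 0.5) values. For ABCB1 these were TMEM47 (0.18), TJP3 (0.27) and NELL2 (0.28). TMEM47 had 0 and 0 CPM in 451Lu-R DMSO and 47.9 and 45.1 with corin, then 0.181 and 0.188 in 1205Lu-R DMSO and 7.88 and 8.64 with corin, nearly the levels of ABCB1. For ABCB5 they were KU-MEL-3 (0.25), CD300LD-AS1 (0.32) and CFAP61 (0.33), all of which were between 23.8 and 41.7 CPM in 451Lu-R DMSO and at or under 4.28 CPM elsewhere. For ABCG2 they were PADI3 (0.16), CCDC69 (0.16) and SLC1A2 (0.17), with the highest levels of each in the 1205Lu-R corin libraries. Likeness over 4 pairs of libraries from 2 lines is a description of these libraries.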

How the data were processed

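Per the study's methods and the submitters' processing notes, reads of the 8 polyA RNA libraries were trimmed with Trimmomatic and quantified with salmon against GENCODE release 32. Tool versions and the strand of the kit are not given in the sources used here. The deposited values are estimated counts per gene, not normalized by the authors. A second set of deposited tables holds the authors' own log2 fold changes and adjusted p-values for PLX4032 plus corin against PLX4032 and was not used.

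Estimated counts were rounded. Of 34228 gene IDs, 34052 were paired with a symbol through GENCODE release 44, whose exon lengths and hg38 positions were used. Each line's 4 libraries were fitted with edgeR 4.0.16 in R 4.3.3 (filterByExpr, TMM scaling, quasi-likelihood test, two-sided, Benjamini-Hochberg adjustment over all genes tested), and the responses and lines were compared in 1 fit of all 8 libraries. SE is the log2 fold change divided by the square root of F. A gene was called at FDR under 0.05, the study's general threshold for significance. The stricter call, a 4-fold change at FDR under 0.001, is the one the study used to count genes changed by corin plus PLX4032 against PLX4032. CPM is per 1000000 counts of a library's total, with no TMM factor, so CPM ratios differ slightly from fitted folds. Folds against a group with no count were taken against 3 counts per library and written as at least. Ratios against 1 to 3 counts carry an exact Clopper-Pearson 95% interval of the summed counts. Intervals and floors cover counting error only. Promoter windows came from RefSeq (GRCh38.p14), with an entry for ABCB1, ABCC2, ABCC4, ABCC5 and ABCG2. Fits were tested on simulated data.

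The members and gene lists were chosen with earlier results of these data known. Beside the 8 members, the text names, per line, at most the 5 largest rises and 5 largest falls of the other ABC genes and at most the 2 of each for every other list, among called genes with a mean of at least 1 CPM, except that some genes this rule selects are not reported here. It also names genes beside ABCB1 and ABCC1, and responses in the second line, chosen after their values were seen. Replicates of a group differed beyond counting noise (chi-square per degree of freedom 1.34 to 1.40), so none was a repeat deposit. The alternatives were DESeq2 1.42.0, size factors, library totals, other filters, a replicate block, a stricter call and leaving out each library.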

Additional observations from a re-analysis of the deposited data

Results flagged for a closer look

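Among the transporters above the floor in both lines, ABCC1 and ABCC5 were singled out because their responses to corin differed between the lines by the edgeR interaction test. The difference for ABCC1 was 0.44 on the log2 scale (adjusted p = 2.28e-05), with a larger rise in 1205Lu-R, and that for ABCC5 was -0.70 (adjusted p = 3.86e-06), with a larger rise in 451Lu-R. All 4 corin libraries lay above the DMSO libraries of their own line for both genes. With 2 libraries per group, single libraries far from the others could not be looked for.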

How the results depend on the processing

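With the stricter call of a 4-fold change at FDR under 0.001, the number of members called went from 6 to 3 in 451Lu-R, from 7 to 2 in 1205Lu-R, from 2 to 0 for the difference of responses, from 6 to 2 between lines with DMSO and from 7 to 3 between lines with corin, as a higher bar is built to do. Under the other alternatives these counts stayed within 1.5 times. With a library left out, 1 library remains in a group, so only effect sizes are given. The log2 fold changes in 451Lu-R then ran from 0.506 to 0.58 for ABCC1, 1.103 to 1.242 for ABCC5 and -0.671 to -0.621 for ABCC4. For 1205Lu-R they ran from 0.992 to 1.066, 0.503 to 0.537 and -0.859 to -0.759. Of all tested genes, 11612 of 14530 were called in 451Lu-R, 11396 of 14563 in 1205Lu-R and 7984 of 16062 for the difference. Between lines, 12111 of 16062 were called with DMSO and 12356 with corin. For single members, 409 recomputed values kept their direction and side of the threshold and 7 changed direction. The 409 include ABCB1 against DMSO, and ABCB5 and ABCC3 between lines, whose outcomes were fixed by groups with no or almost no counts. ABCG2 in 451Lu-R and ABCC2 in 1205Lu-R, also among the recomputed members, passed the filter only through the corin libraries. The values of these members that stayed the same are no support for stability. Scaling by library totals alone, which moved the median difference of all genes to 0.20, turned the difference of responses of ABCC2 to 0.18 and of ABCC4 to 0.018. Leaving out single libraries put that of ABCC2 between -0.37 and 0.39 and its difference between lines with corin between -0.051 and 0.71, for a gene with at most 20 counts per library, and put that of ABCG2 between -0.92 and -0.17 and that of ABCC4 between -0.23 and -0.13. The call of ABCC2 in 1205Lu-R was lost in 6 settings. The difference for ABCC4 was called only with a minimum mean of 1 CPM (-0.20, adjusted p = 0.0493, edgeR), while its adjusted p over the 6 alternatives that kept all libraries reached 0.902. A replicate block gave 6, 7, 2, 6 and 7 members called, the same as without it. The replicate numbers did not pair the samples (correlation of same-numbered deviations -0.013 in 451Lu-R and -0.006 in 1205Lu-R). Depth limits ABCC2 in both lines, ABCB5 in 1205Lu-R and ABCC3 in 451Lu-R.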
